A study of Mus musculus with 5 samples.

Results

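The genes described here encode 10 enzymes and enzyme partners that turn arachidonic acid into prostaglandins, thromboxane and leukotrienes, out of 41388 genes counted per library. They were taken by name: Ptgs1, Ptgs2, Ptges, Hpgds and Tbxas1 of the prostanoid branch, and Alox5, Alox5ap, Lta4h, Ltc4s and Alox15 of the lipoxygenase branch. All 10 symbols matched an Ensembl ID in the files. RNA sequencing was done on macrophages sorted from the outer and inner layers of mouse aorta. Donors of the 3 adventitia libraries were ApoE-/- mice on a C57BL/6 background, fed high-fat chow over 28 weeks, and the labels name 6 mice in this group. Their cells were sorted from the adventitia of the whole aorta as live (propidium iodide negative) CD64+ cells. For the 2 intima libraries, C57BL/6 donors were pooled 5 to a library, and live thoracic aorta cells were sorted, once the adventitia was gone, as CD64+ CD11c+ MHC II+ cells. The labels give no age for either group and no diet for the intima donors. Layer, genotype, aortic segment and gate differed together, and diet and pooling may have differed with them, so their parts in a difference cannot be told apart. Whether the adventitia libraries held separate mice is not given, so the spread between libraries may be partly technical.

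Arachidonic acid is freed from membrane phospholipids by phospholipase A2. Cyclooxygenases (Ptgs1, usually constitutive, and Ptgs2, inducible) make prostaglandin H2, which terminal synthases turn into prostaglandin E2 (Ptges), prostaglandin D2 (Hpgds) or thromboxane A2 (Tbxas1). In the lipoxygenase branch, arachidonate 5-lipoxygenase (Alox5), helped by its activating protein FLAP (Alox5ap), makes leukotriene A4. Lta4h turns this into the neutrophil attractant leukotriene B4, and Ltc4s into leukotriene C4, the parent of the cysteinyl leukotrienes. Alox15 encodes a 12/15-lipoxygenase known from resident peritoneal macrophages.

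The libraries held 3941381 to 10076142 counted reads in the adventitia against 14970204 and 20806925 in the intima. Genes with at least 1 read numbered 23289, 25212 and 25738 in adventitia replicates 1, 2 and 3, against 17489 and 16374 in intima replicates 1 and 2. More genes thus had a read in the adventitia, although its libraries held fewer counted reads. Apoe checked the labels: it was at 10.8 to 21.1 CPM (counts scaled to a common library total, as deposited) in the ApoE-/- adventitia and 4741 and 4209 CPM in the intima. Core macrophage genes were present in every library, with Csf1r, the receptor for macrophage colony stimulating factor, at 944 to 1309 CPM in the adventitia against 741 and 1589 CPM in the intima. The gated gene Itgax (CD11c) was at 19.5 to 35.2 CPM in the adventitia against 62.5 and 261 CPM in the intima. The other gated genes did not all follow the gates. Fcgr1 (CD64) overlapped, at 115 to 280 CPM in the adventitia against 152 and 139 CPM in the intima. The MHC II gene H2-Aa also overlapped, at 7739 to 20032 CPM in the adventitia against 15235 and 9132 CPM in the intima. H2-Ab1 and H2-Eb1, also of MHC II, lay below in the adventitia. The biological coefficient of variation was 0.702 among adventitia libraries against 1.28 between the intima libraries, which thus stood further apart. The test was edgeR's quasi-likelihood test over 13408 genes, with differences given as log2, adventitia minus intima. It called 90 genes at an adjusted p under 0.05 (0.671%), 20 higher (0.149%) and 70 lower (0.522%) in the adventitia. That split was 29 higher and 46 lower by upper-quartile scaling, and 34 higher and 59 lower by library size alone. Over all tested genes the median log2 difference was -0.14 under TMM scaling, 0.35 by upper-quartile scaling and 0.09 by library size alone.

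None of the 9 tested enzymes passed (0 of 9 higher against 0.149% of all tested genes, and 0 of 9 lower against 0.522%). Ptgs2 and Ltc4s were the higher ones in every adventitia library, and Ptgs1, Tbxas1 and Alox5 the lower ones. At an unadjusted p under 0.05 there were 2, Ptgs1 and Ptgs2, where 22.4% of all tested genes reached that level, 14.3% with the adventitia higher and 8.16% with it lower. DESeq2 and limma voom also called 0 enzymes. Their shares of called genes were 12.8% for DESeq2 (9.8% higher and 2.96% lower) and 6.26% for limma voom (4.66% higher and 1.6% lower). In CPM, 5 of the 9 had ranges without overlap, 2 with the adventitia above and 3 with it below. Over all tested genes the ranges did not overlap for 40.5%, with the adventitia above for 26.4% and below for 14.1%. The median log2 difference of the 9 was -0.48, and the 10th, Alox15, had too few reads to be tested.

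**Figure D1:**
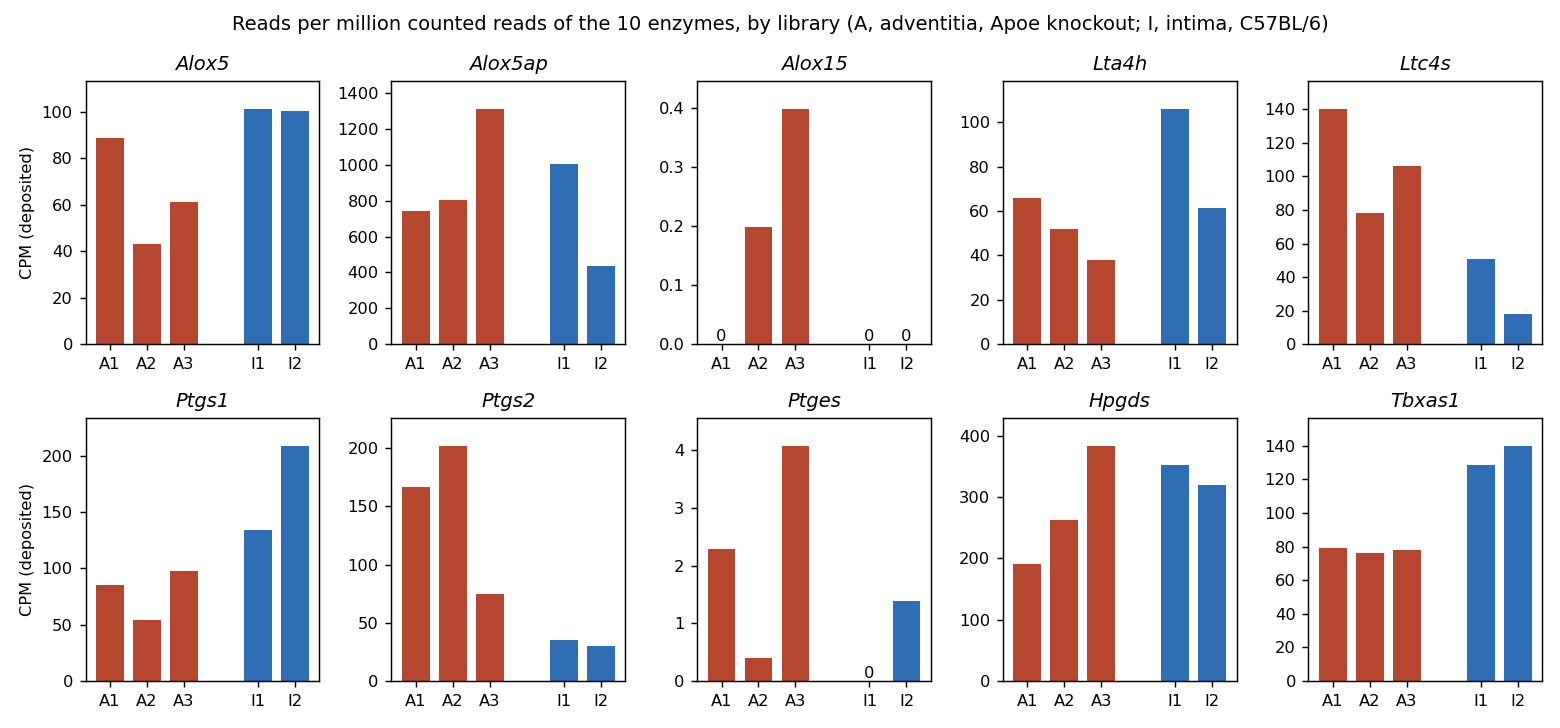
Deposited CPM of each of the 10 enzyme genes (one panel per gene, linear axes from 0) in adventitia libraries A1 to A3 and intima libraries I1 and I2. Each bar is 1 library; Ptgs2 and Ltc4s are higher in all 3 adventitia libraries, while Ptgs1, Tbxas1 and Alox5 are lower in all 3.

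The cyclooxygenase pair went in opposite directions, and the bases just before their annotated starts are shown because the pair holds the largest log2 difference in each direction. The sequences are RefSeq's for GRCm38.p6, 250 bases 5′ to 3′ on the plus strand, at chr2:36230176-36230425 for Ptgs1 and chr1:150099781-150100030 for Ptgs2. Capitals mark matches to the motifs searched.
Ptgs1: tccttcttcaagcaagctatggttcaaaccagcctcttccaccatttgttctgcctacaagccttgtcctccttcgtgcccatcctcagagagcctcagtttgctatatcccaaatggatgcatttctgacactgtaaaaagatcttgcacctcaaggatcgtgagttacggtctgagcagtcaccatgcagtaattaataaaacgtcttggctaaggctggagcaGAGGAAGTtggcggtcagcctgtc
Ptgs2: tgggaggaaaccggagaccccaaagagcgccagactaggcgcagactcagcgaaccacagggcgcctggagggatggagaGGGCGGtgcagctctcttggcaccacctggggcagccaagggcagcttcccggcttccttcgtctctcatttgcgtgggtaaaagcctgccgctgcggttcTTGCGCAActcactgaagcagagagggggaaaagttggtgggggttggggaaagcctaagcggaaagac
In Ptgs2 the capitals are a GC box (GGGCGG, 170 to 165 bases before the start) and a C/EBP motif (TTGCGCAA, 69 to 62 bases before it), and in Ptgs1 a PU.1 motif (GAGGAAGT, 24 to 17 bases before it).

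The search covered both strands of 300 bases per gene, the last 50 of them after the start, in 32851 promoters. GGGCGG was in 35.7% of them, TTGCGCAA in 0.183% and GAGGAAGT in 3.2%. Past the Ptgs2 start lay a partial CRE (TGACG, on the minus strand at bases 14 to 18, in 20.8% of promoters) and an overlapping E box (CACGTG, bases 17 to 22, in 7.15%). The TATA box (TATAAA, in 13.6%) and an NF-kB motif (in 20.7%) had no match in either window. Of the other 6 enzymes with a RefSeq entry, Hpgds held the PU.1 motif 49 to 42 bases before its start. Alox5 held an NF-kB motif and a GC box, Lta4h the NF-kB motif, Ptges the GC box and Tbxas1 the TATA box. The windows of Ptges (chr2:30903298-30903547) and Tbxas1 (chr6:38918736-38918985) lie inside the gene spans given below. Their matches are therefore not at the outer ends of those spans. Ltc4s held no match. These matches are letters in a window, and no binding was measured.

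Ptgs2, the inducible cyclooxygenase (ENSMUSG00000032487, GRCm38 chromosome 1, 150100031 to 150108227, plus strand), had 655, 2034 and 754 reads in adventitia replicates 1, 2 and 3 and 526 and 624 in intima replicates 1 and 2. These are 166, 202 and 74.99 CPM in the adventitia against 35.1 and 29.99 CPM in the intima. Each adventitia library lay above both intima libraries, with replicate 3 the lowest of the adventitia. The log2 difference of 1.92 (SE 0.60, n = 3 and 2) was the largest of the 9 tested enzymes and missed the threshold (adjusted p = 0.113 in edgeR). Over the 15 alternatives it ran from 1.64 to 2.41, with adjusted p from 0.0687 to 0.351.

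Ptgs2 is also an immediate early gene, one that cells switch on within a short time of a stimulus. A list of 11 such genes, chosen after the data were seen, had summed levels of 11903 to 18385 CPM in the adventitia against 11820 and 14346 CPM in the intima. None of the 11 passed the edgeR test (against 0.671% of all tested genes), and 0 of 11 had an unadjusted p under 0.05 (against 22.4%). In deposited CPM every adventitia library lay above both intima libraries for 5 of 11 (against 26.4% of all tested genes) and below for 0 (against 14.1%). After TMM scaling the ranges of Fosb, Jun and Egr1, above in deposited CPM, overlapped, and Fos lay below in the adventitia. The list's median log2 difference was 0.45. The part of these 11 genes in the Ptgs2 level was not tested.

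Ptgs1, the constitutive cyclooxygenase (ENSMUSG00000047250, chromosome 2, 36230426 to 36252272, plus strand), had 335, 549 and 979 reads in the adventitia against 2002 and 4341 in the intima. This was 85.0, 54.5 and 97.4 CPM in the adventitia against 134 and 209 CPM in the intima. All 3 adventitia libraries lay below both intima libraries, and intima replicate 2 was the highest. The log2 difference was -1.33 (SE 0.49, adjusted p = 0.147 in edgeR), and it stayed negative in 15 of 15 alternatives, from -1.58 to -0.84.

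The ratio of these enzymes within a library does not depend on scaling between libraries. Per kilobase of exon, Ptgs2 made up 62.4%, 75.9% and 39.5% of the reads of Ptgs1 plus Ptgs2 in the adventitia, against 18.2% and 10.9% in the intima. The exact binomial (Clopper-Pearson) 95% intervals, which cover counting error only, were 59.2 to 65.5%, 74.1 to 77.6% and 37.2 to 41.8% in the adventitia, against 16.8 to 19.7% and 10.1 to 11.7% in the intima. Ptgs2 was thus the more abundant cyclooxygenase transcript in adventitia replicates 1 and 2, and Ptgs1 in adventitia replicate 3 and in both intima libraries. The mean share was 59.2% ± 18.4 in the adventitia (SD, n = 3) and 14.5% ± 5.20 in the intima (SD, n = 2). A two-sided exact permutation test of the means gave p = 0.2, and 3 libraries against 2 allow no p below 0.1.

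**Figure D2:**
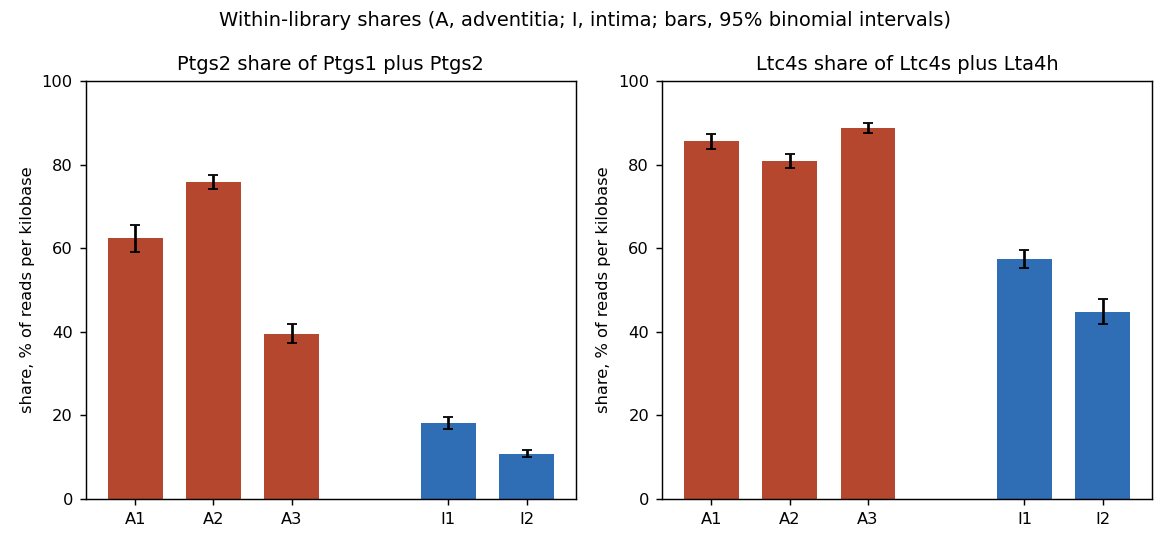
Share of Ptgs2 in Ptgs1 plus Ptgs2 (left) and of Ltc4s in Ltc4s plus Lta4h (right), in percent of reads per kilobase, for adventitia libraries A1 to A3 and intima libraries I1 and I2; error bars are 95% exact binomial intervals. In each panel all 3 adventitia shares lie above both intima shares, with 39.5 to 75.9% against 10.9 and 18.2% for Ptgs2 and 81.0 to 88.8% against 44.8 and 57.4% for Ltc4s. The Ltc4s and Lta4h pair was chosen after the data were seen.

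Of the terminal prostanoid synthases, Tbxas1, thromboxane A synthase (ENSMUSG00000029925, chromosome 6, 38875404 to 39084585, plus strand), was the most even within groups. Its level was 78.9, 76.2 and 78.2 CPM in the adventitia (311, 768 and 786 reads) and 128 and 140 CPM in the intima (1921 and 2911 reads). The adventitia values spanned less than 3 CPM and lay below both intima values, as they also did after TMM scaling. The TMM factors of the adventitia libraries ran from 0.998 to 1.17, so this narrow span holds on the deposited scale only. Its log2 difference of -1.02 (SE 0.47, edgeR adjusted p = 0.230) did not pass, and over the 15 alternatives it ran from -1.22 to -0.54, the smallest with upper-quartile scaling. In deposited CPM the group means were 77.8 ± 1.39 in the adventitia (SD, n = 3) and 134 ± 8.19 in the intima (SD, n = 2).

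Platelets are known for Tbxas1, Ptgs1 and the 12-lipoxygenase Alox12. The summed level of 8 platelet and megakaryocyte markers was 10.4 to 24.4 CPM in the adventitia, and in the intima 0.334 CPM (replicate 1) and 316 CPM (replicate 2). In intima replicate 1, where Tbxas1 was at 128 and Ptgs1 at 134 CPM, the defining markers Itga2b, Gp9, Gp6, Tubb1 and Gp5 had 0 reads and Ppbp was at 0.200 CPM. In intima replicate 2, where Ptgs1 was at 209 CPM, Ppbp was at 231 CPM. Alox12, named after its values were seen, was at 0.496 to 0.597 CPM in the adventitia against 0.200 and 32.0 CPM in the intima. It was left out of the edgeR test by the filter on low counts. The part of platelet RNA in intima replicate 2 was not tested.

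Hpgds, hematopoietic prostaglandin D synthase (ENSMUSG00000029919, chromosome 6, 65117293 to 65144908, minus strand), was high in all libraries, at 191, 263 and 384 CPM in the adventitia against 353 and 319 CPM in the intima. The ranges overlapped, since adventitia replicate 3 was the highest of the 5 libraries and replicate 1 the lowest. Its log2 difference was -0.48 (SE 0.46, adjusted p = 0.596 in edgeR), and with upper-quartile scaling it was -0.02. Mast cells are a known source of Hpgds and Ltc4s. The 10 mast cell markers summed to 12.4 to 31.4 CPM in the adventitia against 21.5 and 31.4 CPM in the intima. The intima sums came almost wholly from Gata2 (21.0 and 13.0 CPM) and Hdc (0 and 18.3 CPM), neither of which is particular to mast cells. Of the 4 tested none passed. Cpa3, Mcpt4, Tpsb2, Cma1, Ms4a2 and Tpsab1 had 0 reads in both intima libraries. In the adventitia these 6 were at 0 to 1.69 CPM apart from Cma1, a mast cell chymase, at 1.27, 0.0992 and 5.67 CPM. Kit, the stem cell factor receptor, was at 2.54, 10.8 and 1.69 CPM in the adventitia against 0.334 and 0.0481 CPM in the intima. The part of mast cell RNA in the levels of Hpgds and Ltc4s was not tested.

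Ptges, the inducible prostaglandin E synthase (ENSMUSG00000050737, chromosome 2, 30889471 to 30929863, minus strand), was close to the detection limit. It had 9, 4 and 41 reads in the adventitia against 0 and 29 in the intima, or 2.28, 0.397 and 4.08 CPM in the adventitia against 0 and 1.39 CPM in the intima. A library with 0 reads allows up to 3 reads, 0.200 CPM in intima replicate 1. The log2 difference of 1.53 had an SE of 1.75, larger than itself (adjusted p = 0.674 in edgeR), and without intima replicate 2, when the intima had 0 reads, the fitted value was 7.33, which is no bound. Of the other 2 prostaglandin E synthases, Ptges3, a cochaperone with synthase activity, was at 406 to 538 CPM in the adventitia against 299 and 213 CPM in the intima. Ptges2 was at 1.52 to 2.88 CPM in the adventitia against 0 and 3.22 CPM in the intima.

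In the leukotriene branch, Alox5ap, which presents arachidonate to the 5-lipoxygenase, was the most abundant member. It is encoded on chromosome 5 (ENSMUSG00000060063, 149265058 to 149288045, plus strand). It had 742, 807 and 1310 CPM in the adventitia against 1002 and 437 CPM in the intima. On the RPKM scale, which divides CPM by gene length in kilobases, it was at 871, 947 and 1537 in the adventitia against 1176 and 512 in the intima. It ranked first among the 10 in every library and lay above at least 99.3% of tested genes in each. The log2 difference of 0.16 (SE 0.51, edgeR adjusted p = 0.903) was smaller than its error, and the groups overlapped. The direction changed with the libraries used. The difference was 1.13 without intima replicate 1 and -0.46 without intima replicate 2.

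Alox5, the 5-lipoxygenase itself (ENSMUSG00000025701, chromosome 6, 116410077 to 116461178, minus strand), lay below its partner on the RPKM scale. Its level was 88.5, 42.9 and 61.0 CPM in the adventitia (349, 432 and 613 reads) and 101 and 100.2 CPM in the intima (1512 and 2085 reads). The adventitia libraries all lay below the intima libraries, which differed by less than 1 CPM from each other in deposited CPM. The TMM factors of intima replicates 1 and 2 were 0.854 and 0.958, so they stood further apart after TMM scaling. The log2 difference was -0.91 (SE 0.53, adjusted p = 0.347 in edgeR), and over the 15 alternatives it ran from -1.14 to -0.41, the smallest with upper-quartile scaling. On the RPKM scale Alox5 was at 21.6, 10.4 and 14.8 in the adventitia against 24.6 and 24.4 in the intima.

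Lta4h, leukotriene A4 hydrolase (ENSMUSG00000015889, chromosome 10, 93453396 to 93484896, plus strand), was at 65.7, 51.7 and 37.8 CPM in the adventitia against 106 and 61.2 CPM in the intima. In CPM adventitia replicate 1 lay above intima replicate 2, so the groups overlapped, whereas after TMM scaling they did not. The log2 difference was -0.97 (SE 0.58, adjusted p = 0.359 in edgeR), and it was -0.28 without intima replicate 1.

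Ltc4s, leukotriene C4 synthase (ENSMUSG00000020377, chromosome 11, 50236469 to 50238616, minus strand), went the other way. It had 552, 789 and 1069 reads in the adventitia against 760 and 369 in the intima, or 140, 78.3 and 106 CPM in the adventitia against 50.8 and 17.7 CPM in the intima. Every adventitia library was above both intima libraries, and intima replicate 2 was the lowest. The log2 difference of 1.37 (SE 0.65, edgeR adjusted p = 0.241) did not pass. It was 2.57 without intima replicate 1 and 0.67 without intima replicate 2. The antisense gene Gm26542 shares 192 exon bases with Ltc4s and had 0 to 6 reads per library; the strand setting of the counting is not given in the sources used here.

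Lta4h and Ltc4s compete for leukotriene A4, so their share within a library was computed, a choice made after the data were seen. Per kilobase, Ltc4s made up 85.7%, 81.0% and 88.8% of the pair in the adventitia and 57.4% and 44.8% in the intima. The means were 85.1% ± 3.93 in the adventitia (SD, n = 3) and 51.1% ± 8.87 in the intima (SD, n = 2). The two-sided exact permutation p was 0.1, the smallest possible here. Since the pair was chosen with its values known, this p cannot serve as a test of the share. On the RPKM scale Ltc4s was the higher of the pair in all 3 adventitia libraries and in intima replicate 1, and Lta4h in intima replicate 2.

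Alox15 (ENSMUSG00000018924, chromosome 11, 70344152 to 70352031, minus strand) had 0, 2 and 4 reads in the adventitia against 0 in both intima libraries. Summed over a group this was 0.249 CPM in the adventitia (exact Poisson 95% interval 0.0915 to 0.543) and 0 CPM in the intima (the same interval, 0 to 0.103). Its share of Alox5 plus Alox15 reads was at most 0.648% in any library. The 10 large peritoneal macrophage markers summed to 188 to 236 CPM in the adventitia against 279 and 261 CPM in the intima, and none of 8 tested passed. Most of the adventitia sum came from Itga6, an integrin chain that many cells make (80.4 to 118 CPM in the adventitia against 98.4 and 80.4 CPM in the intima), and Timd4, a phosphatidylserine receptor of resident macrophages (81.0 to 123 CPM in the adventitia against 28.1 and 42.1 CPM in the intima). Gata6, the defining transcription factor, had 2, 88 and 4 reads in the adventitia against 850 and 57 in the intima. Icam2 was at 0.254 to 14.0 CPM in the adventitia against 48.8 and 120 CPM in the intima, and Rarb, F5, F10 and Prg4 reached at most 5.58 CPM in any library.

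**Figure D3:**
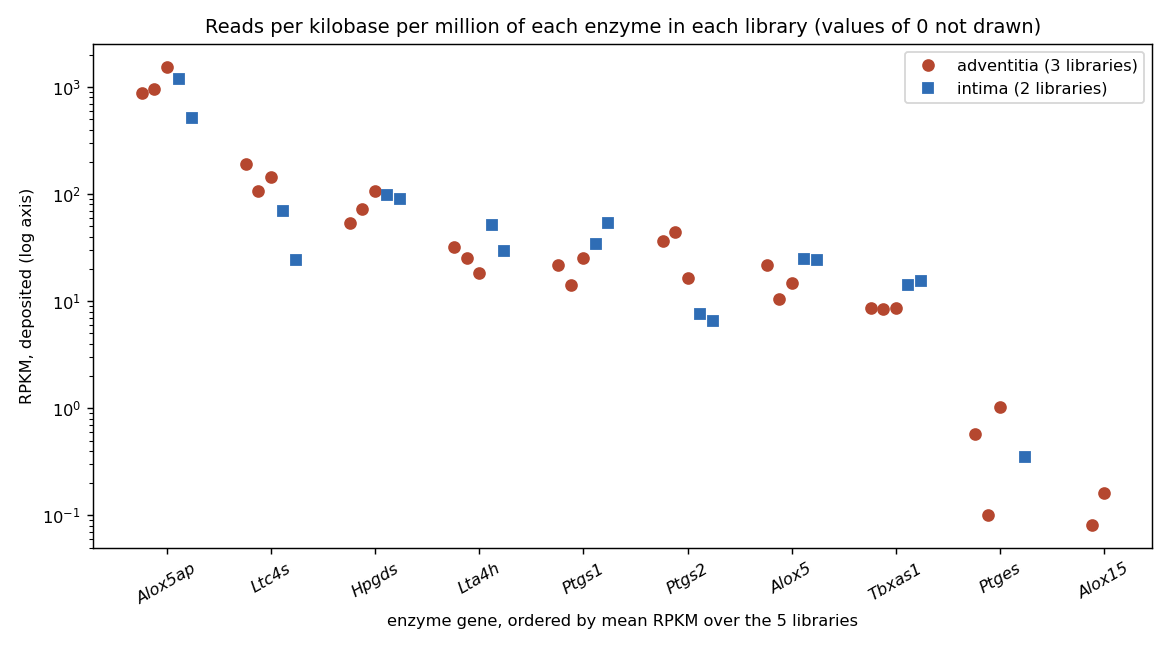
Deposited RPKM (log axis) of the 10 enzyme genes, ordered by mean level; circles are the 3 adventitia libraries and squares the 2 intima libraries, with values of 0 not drawn. Alox5ap is highest in every library, at 512 to 1537 RPKM, and Ptges and Alox15 reach at most 1.04 and 0.162 RPKM.

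The order of the enzymes by RPKM was much alike in the adventitia libraries. Alox5ap was followed by Ltc4s (106 to 190 RPKM) and Hpgds (53.1 to 107 RPKM) in all 3. Ptgs2, at 36.3, 44.1 and 16.4 RPKM, ranked 4 in adventitia replicates 1 and 2 and 6 in replicate 3. In the intima libraries Hpgds ranked 2, at 98.3 and 89.0 RPKM. Ltc4s ranked 3 in intima replicate 1 (69.0 RPKM) and 6 in replicate 2 (24.1 RPKM), and Ptgs2 ranked 8 in both (7.67 and 6.55 RPKM). In the adventitia the ranges of Lta4h (18.3 to 31.8 RPKM), Ptgs1 (14.0 to 25.1 RPKM) and Alox5 (10.4 to 21.6 RPKM) overlapped. Within each adventitia library Alox5 ranked 7, below Lta4h and Ptgs1, while Ptgs1 ranked above Lta4h in replicate 3 and below it in replicates 1 and 2. In adventitia replicate 1 Ptgs1 and Alox5 were close, at 21.9 and 21.6 RPKM, and in CPM Alox5 was the higher (88.5 against 85.0). Such ranks rest on the exon lengths used, 4106 bases for Alox5, 3884 for Ptgs1 and 9094 for Tbxas1.

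The 10 enzymes together took 1559, 1575 and 2154 CPM in the adventitia against 1910 and 1315 CPM in the intima. Without Alox5ap the sums were 817, 769 and 844 CPM in the adventitia against 907 and 878 CPM in the intima.

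**Figure D4:**
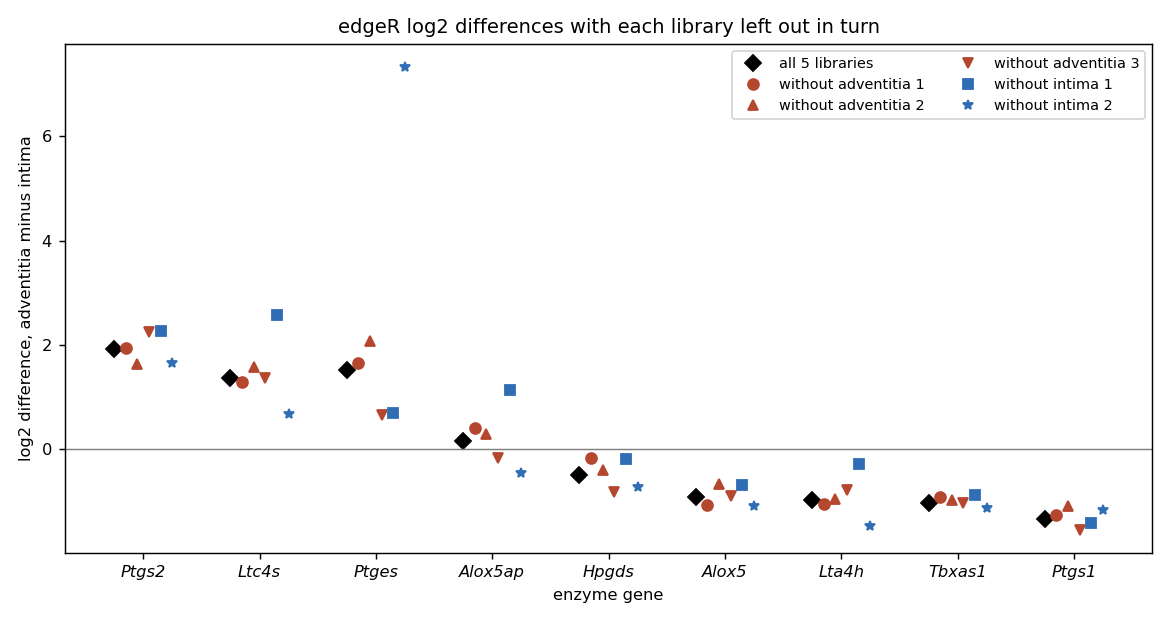
edgeR log2 difference (adventitia minus intima) of the 9 tested enzymes with all 5 libraries (diamonds) and with each library left out in turn (red symbols, an adventitia library left out; blue symbols, an intima library left out). Ptgs2 stays between 1.64 and 2.26 and Ptgs1 between -1.54 and -1.09, Alox5ap crosses 0, and Ptges moves most, to 7.33 without intima replicate 2.

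The genes whose mean-centred log2 profile over the 5 libraries lay nearest were Psmf1 and Tox4 for Ptgs1, at root mean square differences of 0.0830 and 0.104. For Ptgs2 they were 1700088E04Rik and Scn4a (0.113 and 0.135), and for Ltc4s Mapk8ip2 and Pld5 (0.0628 and 0.0990). With 5 libraries, such near profiles are a description of these libraries only.

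Around the enzymes, 69 other genes of the pathway were read from the same test in lists by role, of which 45 could be tested. Only the epoxide hydrolase Ephx2 passed: 1 of 45 was lower, none higher and 44 did not pass, against 0.522% of all tested genes called lower. Their median log2 difference was -0.69, beside -0.14 for all tested genes, and 13 of 45 had an unadjusted p under 0.05, where 22.4% of all tested genes did. DESeq2 called 8 of these genes, against 12.8% of all genes it tested, and limma voom 3 of 45, against 6.26%. The DESeq2 calls were Pla2g2d, Pla2g6, Pla2g12a, Dpep1 and Abcc4, 5 higher in the adventitia, and Ephx2, Ptgis and Alox12, 3 lower. Over all genes DESeq2 called 9.8% higher and 2.96% lower. The limma voom calls were Pla2g12a and Dpep1, higher in the adventitia, and Ephx2, lower. The counts of both tools are close to their shares over all genes.

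Ephx2, soluble epoxide hydrolase, which opens the epoxides that cytochrome P450 enzymes make from arachidonic acid, was low in every adventitia library. It had 3, 5 and 2 reads there against 681 and 1601 in the intima, or 0.761, 0.496 and 0.199 CPM in the adventitia against 45.5 and 76.9 CPM in the intima. The log2 difference was -7.26 (SE 1.11, adjusted p = 0.0116 in edgeR). The call was lost without any 1 adventitia library, with adjusted p of 0.144, 0.0532 and 0.0776 in edgeR without replicates 1, 2 and 3, and kept without either intima library. Ephx1, the microsomal enzyme, had a log2 difference of -1.55 (adjusted p = 0.171 in edgeR).

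Among 15 tested phospholipases and arachidonate handling genes (of 20) none passed, 5 were higher and 10 lower, and the median log2 difference was -0.57. Pla2g7, the lipoprotein-associated phospholipase that cleaves oxidised phospholipids, was at 478 to 650 CPM in the adventitia against 915 and 685 CPM in the intima. Pla2g2d, a secreted phospholipase of resident macrophages and dendritic cells, was at 45.4, 79.0 and 96.1 CPM in the adventitia against 3.34 and 3.65 CPM in the intima. The groups lay far apart, yet the log2 difference of 4.18 (SE 0.86) missed the threshold in edgeR and passed in DESeq2 (adjusted p = 0.0622 in edgeR and 2.08e-04 in DESeq2). Pla2g4a, the cytosolic enzyme that feeds both branches, varied widely within groups, at 6.34, 71.4 and 41.7 CPM in the adventitia against 37.9 and 182 CPM in the intima.

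Pla2g12a and Pla2g6 had the largest differences toward the adventitia, at log2 5.85 (SE 2.30) and 4.64 (SE 2.04). Neither passed in edgeR (adjusted p = 0.165 and 0.207), while both passed in DESeq2 (adjusted p = 0.00122 and 0.00374). Pla2g6 was at 8.04 to 10.4 CPM in the adventitia against 0.534 and 0.0481 CPM in the intima. Pla2g5 was at 0.199 to 2.03 CPM in the adventitia against 0.200 and 29.8 CPM in the intima, so its log2 difference of -4.32 rested on intima replicate 2. Mgll, monoacylglycerol lipase, had the same shape, at 0.992 to 2.54 CPM in the adventitia against 0.0668 and 17.6 CPM in the intima. Abhd12, a lipase of lysophosphatidylserine, was even, with a log2 difference of -0.10 (SE 0.42).

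Of 13 tested genes for other prostanoid synthases and for breakdown (of 14), none passed, 4 were higher and 9 lower, with a median log2 difference of -0.85. Hpgd, the 15-hydroxyprostaglandin dehydrogenase that inactivates prostaglandins, was at 578, 309 and 263 CPM in the adventitia against 1122 and 650 CPM in the intima. All adventitia libraries were below both intima libraries (edgeR log2 difference -1.50, SE 0.46, adjusted p = 0.113). Mgst1, a microsomal glutathione transferase, was at 72.8 to 138 CPM in the adventitia against 38.8 and 49.1 CPM in the intima. Cyp4f18, which inactivates leukotriene B4 in mouse neutrophils, was at 20.3 to 74.3 CPM in the adventitia against 22.0 and 410 CPM in the intima.

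Ptgis, the prostacyclin synthase of endothelium and smooth muscle, was at 1.01, 0.992 and 3.88 CPM in the adventitia against 5.68 and 83.5 CPM in the intima (edgeR log2 difference -4.60, SE 1.39, adjusted p = 0.113). Of 9 tested endothelial markers 4 were called lower in the adventitia (against 0.522% of all tested genes) and none higher (against 0.149%). The 10 markers summed to 32.7 to 53.8 CPM in the adventitia against 971 and 949 CPM in the intima. Pecam1, which defines endothelium and is also made by some leukocytes, was at 0.796 to 4.66 CPM in the adventitia against 193 and 326 CPM in the intima. Kdr, the endothelial receptor for vascular endothelial growth factor, was at 1.27 to 1.89 CPM in the adventitia against 0.200 and 0.0481 CPM in the intima. Smooth muscle markers summed to 13.7 to 57.9 CPM in the adventitia against 294 and 82.6 CPM in the intima. Of 5 tested 1, Tagln, was called lower (against 0.522% of all tested genes). Most of the intima sum came from Acta2 (145 and 23.5 CPM) and Tagln (106 and 49.9 CPM). Myh11, Cnn1, Des and Actg2 reached at most 2.03 CPM in the adventitia and 0.401 CPM in the intima, and the ranges of Mylk and Smtn overlapped. Mesothelial markers summed to 3.78 to 13.2 CPM in the adventitia against 0.468 and 293 CPM in the intima, and the 4 tested did not pass. Most of the sum of intima replicate 2 came from Msln (177 CPM) and Wt1 (78.3 CPM). Upk3b, Lrrn4 and Krt7 had 0, 1 and 2 reads there, and Krt7 lay above in the adventitia. The part of endothelial, smooth muscle and mesothelial cells in the levels of Ptgis, Ptgs1 and Ephx2 was not tested. Fewer cells of a type cannot be told apart from less RNA per cell in these bulk libraries.

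Of 10 fibroblast markers 1, Lum, was called higher in the adventitia (against 0.149% of all tested genes), and 9 did not pass. They summed to 751, 682 and 1535 CPM in the adventitia against 304 and 283 CPM in the intima. Neutrophil markers summed to 61.1 to 128 CPM in the adventitia against 4.81 and 101 CPM in the intima. None of 6 tested passed. S100a8 was at 57.8, 20.5 and 21.1 CPM in the adventitia against 0.0668 and 1.01 CPM in the intima, while Ly6g had 2 or 3 reads per adventitia library and 0 in the intima. In intima replicate 2, where Cyp4f18 was at 410 CPM, Csf3r was at 59.8, S100a9 at 22.7 and Cxcr2 at 17.5 CPM, and their part in that level was not tested. The eosinophil and basophil list summed to 1.09 to 3.58 CPM in the adventitia against 0.334 and 0.192 CPM in the intima. Dendritic cell markers summed to 280 to 461 CPM in the adventitia against 43.3 and 32.9 CPM in the intima. Most of the adventitia sum came from Cd209a, the only 1 of 8 called (against 0.149% of all tested genes called higher). By CPM ranges 5 of 8 lay above in the adventitia (against 26.4% of all tested genes) and 1 below (against 14.1%). That 1 was Clec9a, at 0.397 to 4.82 CPM in the adventitia against 4.94 and 21.5 CPM in the intima. The part of these cell types in the levels of Ptgs2, Ltc4s and Pla2g2d was not tested.

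Among 8 tested genes for other lipoxygenases and leukotriene handling (of 14), Ephx2 fell, none rose and 7 did not pass. The epidermis-type and other lipoxygenases Alox8, Alox12b, Aloxe3 and Alox12e had 1 to 5 reads in every adventitia library and 0 or 1 in the intima. More genes had any read in the adventitia (23289 to 25738 per library) than in the intima (17489 and 16374). Counts this low were therefore not read as a difference. Dpep2, a dipeptidase that turns leukotriene D4 into E4, was at 48.2, 58.0 and 193 CPM in the adventitia against 279 and 402 CPM in the intima (edgeR log2 difference -1.95, SE 0.62, adjusted p = 0.114). Dpep1, the related dipeptidase, was low and went the other way, at 14.2, 0.893 and 11.04 CPM in the adventitia against 0.0668 and 0.0481 CPM in the intima (1 read in each intima library). Cotl1, coactosin-like protein, which binds the 5-lipoxygenase, was at 144.5 to 225 CPM in the adventitia against 193 and 336 CPM in the intima.

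**Figure D5:**
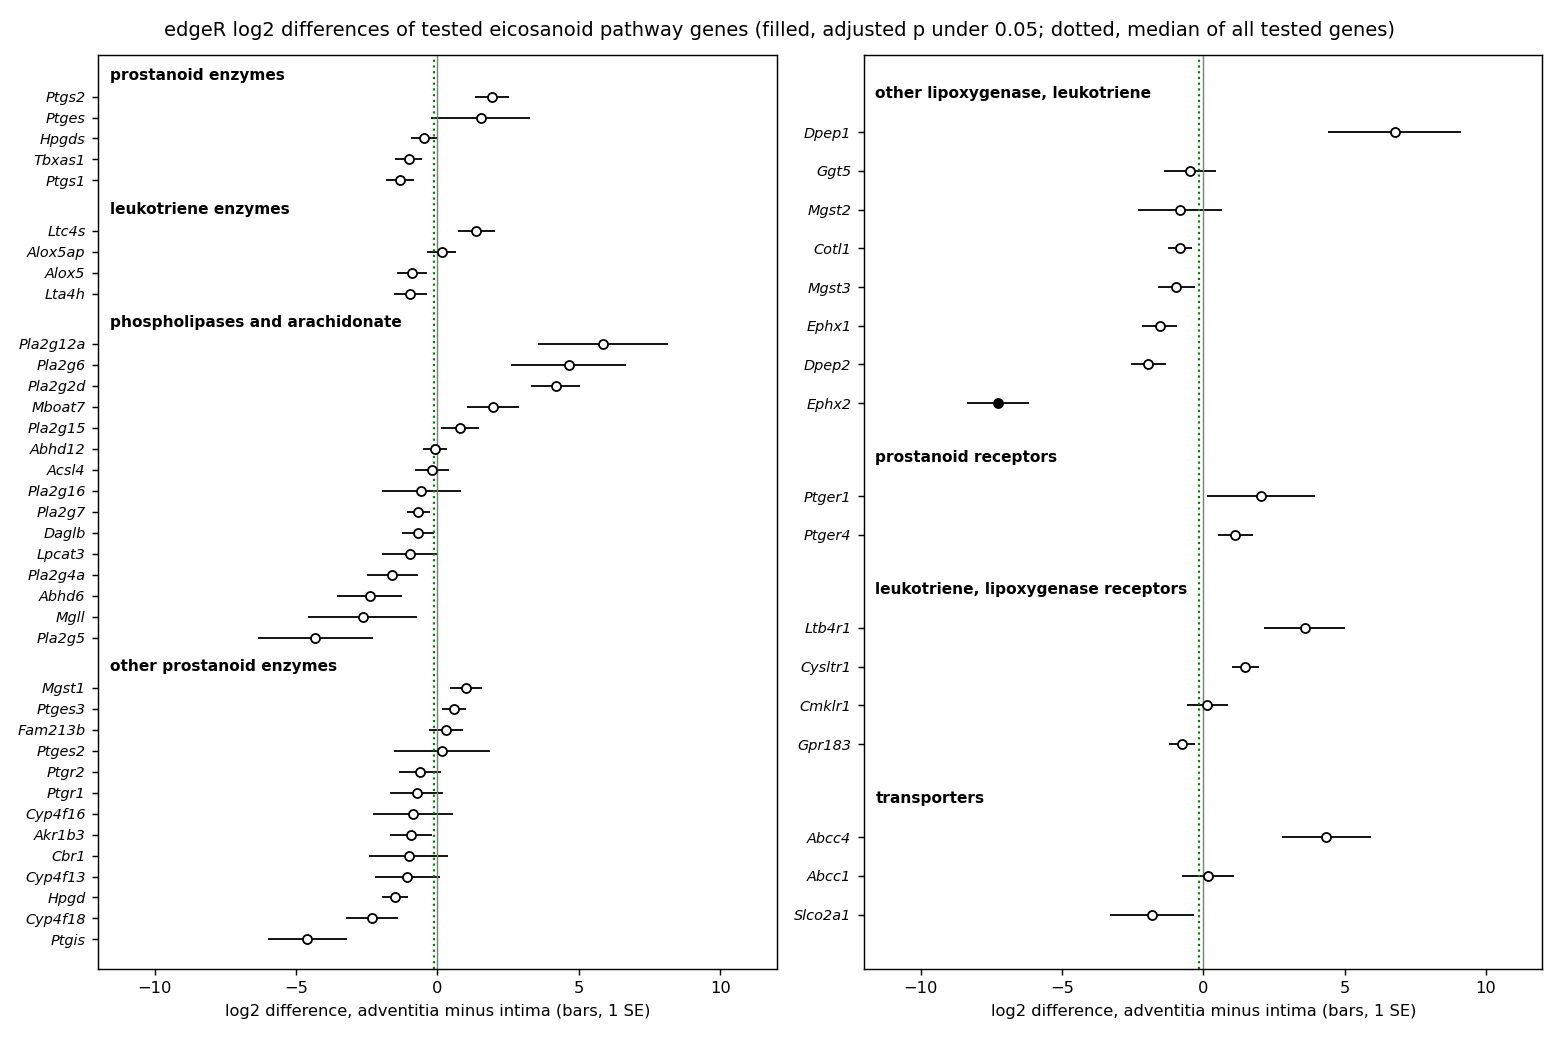
edgeR log2 differences (adventitia minus intima, bars 1 SE) of the 9 tested enzymes and 45 other tested pathway genes, grouped by role; filled points passed at an adjusted p under 0.05, and the dotted line is the median of all tested genes (-0.14). Ephx2, at -7.26, is the only filled point.

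The receptors for these lipids were mostly too low to test. Of 9 prostanoid receptors 2 could be tested, Ptger4 and Ptger1, and neither passed. Ptger4, the EP4 receptor for prostaglandin E2, was at 95.7, 171 and 128 CPM in the adventitia against 70.7 and 29.5 CPM in the intima (edgeR log2 difference 1.14, SE 0.61, adjusted p = 0.300). Its CPM ranges did not overlap, but after TMM scaling they did. Ptger1 had 5, 67 and 7 reads in the adventitia against 17 and 0 in the intima. The thromboxane receptor Tbxa2r had 1 to 4 reads per adventitia library and 0 in the intima.

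Of 9 receptors for leukotrienes and lipoxygenase products 4 could be tested and none passed. Cysltr1, the receptor for leukotriene D4, was at 187, 267 and 242 CPM in the adventitia against 79.8 and 61.1 CPM in the intima. Every adventitia library was above both intima libraries, and edgeR put the log2 difference at 1.48 (SE 0.48, adjusted p = 0.116). Cysltr2 had 0 reads in all 5 libraries. Ltb4r1, the high-affinity leukotriene B4 receptor, had 5, 14 and 5 reads in the adventitia against 2 and 0 in the intima. Gpr183, an oxysterol receptor listed here beside them, was at 91.9 to 199 CPM in the adventitia against 172 and 212 CPM in the intima.

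Of the 3 transporters none passed in edgeR, and DESeq2 called Abcc4 (adjusted p = 0.0251). Abcc1, which exports leukotriene C4, was at 22.4 to 39.8 CPM in the adventitia against 18.7 and 24.9 CPM in the intima. Abcc4, an exporter of prostaglandins, was at 0.895 to 4.06 CPM in the adventitia against 0.134 and 0.0481 CPM in the intima. Slco2a1, the prostaglandin uptake carrier, was at 2.29 to 7.10 CPM in the adventitia against 11.2 and 11.3 CPM in the intima.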

How the data were processed

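Poly-A RNA of sorted cells was amplified with the SMARTer Ultra Low kit and sequenced as single reads of 50 bases, per the labels' protocols. The authors' count values were whole reads for each gene, and the deposited CPM and RPKM columns equalled values computed from those counts and gene lengths (0 mismatches at 1e-06). Per the submitters' processing notes, the build was GRCm38 and the tools listed are featureCounts 1.4.5, STAR 2.0.4b and Subread; annotation release and strand setting are not given in the sources used here. Symbols were found for 40254 of 41388 IDs, and coordinates are those of the files. A floor of 3 reads is 0.144 to 0.761 CPM per library. With no molecular identifiers, PCR copies are not independent, so intervals and floors describe counting error alone.

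Counts were tested with edgeR 4.0.16 (glmQLFit, glmQLFTest) in R 4.3.3, with filterByExpr by group (minimum count 10, total 15), TMM factors, no covariates and Benjamini-Hochberg adjustment over 13408 genes; the standard error is the log2 difference over the square root of F. Alternatives used DESeq2 1.42.0, limma 3.58.1 voom, other scalings and filters, thinned counts, a replicate block, and fits leaving out 1 library in turn. Where intima kept 1 library, it was assumed to vary like the adventitia. Named genes were all 10 enzymes, and per pathway list the called genes, the 2 most abundant and the 2 largest differences each way; Pla2g2d, Pla2g4a, Ephx1, Ptges2, Alox12, the other lipoxygenases, Tbxa2r and Cysltr2 were named after their values were seen. The enzymes and lists were chosen with earlier results of these data known. Other software was Python 3.11.15, pandas 2.3.3, scipy 1.17.1 and matplotlib 3.10.9.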

Additional observations from a re-analysis of the deposited data

How the results depend on the processing

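The number of calls over all genes moved with the method. It was 90 in the main test, 386 with no filter on low counts, 396 with 1 CPM required in every library of a group, 839 with limma voom, 2159 with DESeq2 and 183 with the replicate block, and 10 to 389 with one library left out (10 without adventitia replicate 1, 389 without intima replicate 1). No enzyme was called under any of the 15 alternatives (0 in each). The calls among other pathway genes numbered 1 in the main test, 2 with upper-quartile scaling, with library size alone, with DESeq2 size factors, with the 1 CPM filter, with thinned counts and with the replicate block, 3 with limma voom, 6 with no filter and 8 with DESeq2, and 0 to 5 with one library left out. The labels do not say that the replicate numbers pair libraries, and the same-numbered libraries deviated with correlations of 0.035 and 0.00565.

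Alox5, Lta4h, Ltc4s, Ptgs1, Ptgs2, Hpgds and Tbxas1 kept their direction in 15 of 15 alternatives and Ptges in the 13 that tested it. Alox5ap turned negative, with log2 differences of -0.052 with no filter and -0.060 with the replicate block, and with one library left out it ran from -0.46 to 1.13 (-0.17 without adventitia replicate 3). The cause was not tested. The within-library shares stayed higher in the adventitia by reads as well as per length. With one library left out, the Ptgs2 share difference was 36.4 to 54.6 percentage points and the Ltc4s one 27.7 to 40.3. Alox15 had too few reads for the main test, so its fits are not compared.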
